A study of Mus musculus with 8 samples.

Results

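The 9 genes Gfap, Pdgfra, Pax2, S100b, Gja1, Aldh1l1, Aldh1a1, Slc1a2 and Agt mark astrocytes of the mouse retina. They were chosen by symbol from the deposited table of read counts, in which all 9 of 9 were present among 16109 genes, and all 9 passed edgeR's expression filter, which left 15850 genes for testing. The study profiled retinal messenger RNA at postnatal day 5 from C57BL/6 mice, in 4 libraries labelled C3 KO and 4 labelled WT, to compare complement C3 deficient with wild-type animals while the first retinal vessels form. Both labels share the strain, the age and a dissection in which the hyaloid vessels were taken out. The sources used here give neither the targeted C3 allele, nor the sex of the animals, nor how many animals each library holds. The p-values therefore measure the spread between these libraries, which may be technical in part.

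Retinal astrocytes are not born in the retina. Their precursors form in the optic nerve head, express the transcription factor Pax2, and migrate outward over the inner surface, drawn by PDGF-A that ganglion cells release onto the receptor encoded by Pdgfra. They lay down a network that secretes VEGF, and the endothelial sprouts of the first vessel layer grow along it. As the vessels arrive, the astrocytes mature and fill with the intermediate filament protein GFAP. Several of the 9 genes are not restricted to astrocytes in the eye. Slc1a2 is also made by cones and bipolar cells, Gja1 by pigment epithelium and vessel walls, and Aldh1a1 by dorsal retina. Pdgfra is also made by fibroblasts, and by oligodendrocyte precursors elsewhere in the body.

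In the targeted gene the counts went against the labels. C3 stood at 80.6 to 87.5 CPM (counts scaled to library size after TMM normalization) in the libraries labelled C3 KO and at 1.75 to 3.32 CPM in those labelled WT, the opposite of the label. Sex-linked RNA also moved with the labels: Xist was at 1.48 to 2.65 CPM in the 4 libraries labelled C3 KO and at 295 to 2441 CPM in those labelled WT, and only 1 library labelled WT, replicate 3, combined Xist with Y-linked reads at the level of the other label (75.8 CPM on average over 4 Y-linked genes). WT replicates 1, 2 and 4 averaged 0.448, 5.05 and 3.71 CPM over those genes. Sex and label were therefore largely confounded, and fits with Y-linked expression as a covariate are given beside the members and gene lists whose calls they change. Only WT replicate 3 reached the Y-linked level of the other label, so those fits separate sex from label poorly. The covariate, a mean log2 CPM, also set WT replicate 1 apart from WT replicates 2 and 4. Xist was high in each of these, at 2441, 2369 and 2195 CPM, so that part of the covariate is not a difference in Xist. A call lost in the covariate fits does not show an effect of sex. Every direction below follows the labels as deposited, C3 KO over WT. Whether the labels were exchanged was not tested; if they were, every higher and lower below would turn round. The smallest library held 16503564 counted reads and the largest 19608824. Crx, a factor of retinal photoreceptors, was present under both labels and averaged 1153 CPM under the C3 KO label and 1342 CPM under the WT label.

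Of the 9 genes, 5 differed between the labels at an edgeR adjusted p below 0.05, against 14.3% of all tested genes. Gja1, Gfap and Pdgfra were called higher, as were 8.33% of tested genes, and Aldh1a1 and Slc1a2 were called lower, as were 5.98%. Pax2, S100b, Aldh1l1 and Agt did not pass. The libraries of the labels did not overlap for 4 of the 9 genes, Gfap, Pdgfra, Gja1 and Aldh1a1, against 17.4% of tested genes. The median log2 fold change was 0.37 over the 9 genes and 0.00 over all tested genes. In whole retina, changes in the number of astrocytes, in RNA per astrocyte and in other cells that make these genes cannot be told apart.

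Promoter windows of 4 of these genes are shown because they are the 3 called higher and the one called lower by most. Each runs from 250 bases before to 50 bases after a RefSeq transcript start in GRCm38.p6, 5′ to 3′ on the gene's strand. Gfap lies at chr11:102897151-102897450 (minus strand), Gja1 at chr10:56377050-56377349 (plus), Pdgfra at chr5:75152001-75152300 (plus), and the window of Aldh1a1 at chr19:20601718-20602017 (plus) is the more downstream of 2 starts listed. Capitals mark matches, on either strand, to any of 4 short motifs. The STAT motif was searched as TTCNNNGAA, which reads the same on either strand. The AP-1 motif was searched as TGANTCA. The other searches were the TATA box, spelled TATAAA, and the CCAAT box, spelled as its name says; the motifs did not overlap in the windows shown.
Gfap: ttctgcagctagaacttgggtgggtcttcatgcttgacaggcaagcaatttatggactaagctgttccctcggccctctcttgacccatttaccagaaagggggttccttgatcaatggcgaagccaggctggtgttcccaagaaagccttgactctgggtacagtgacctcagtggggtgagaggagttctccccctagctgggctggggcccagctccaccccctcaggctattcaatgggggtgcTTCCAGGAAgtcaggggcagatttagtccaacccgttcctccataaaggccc
Gja1: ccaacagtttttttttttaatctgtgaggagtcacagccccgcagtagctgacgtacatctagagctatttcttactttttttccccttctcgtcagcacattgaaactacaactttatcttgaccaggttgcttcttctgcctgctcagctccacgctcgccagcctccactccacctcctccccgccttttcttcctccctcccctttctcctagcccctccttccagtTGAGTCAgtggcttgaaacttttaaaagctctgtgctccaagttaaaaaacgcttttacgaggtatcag
Pdgfra: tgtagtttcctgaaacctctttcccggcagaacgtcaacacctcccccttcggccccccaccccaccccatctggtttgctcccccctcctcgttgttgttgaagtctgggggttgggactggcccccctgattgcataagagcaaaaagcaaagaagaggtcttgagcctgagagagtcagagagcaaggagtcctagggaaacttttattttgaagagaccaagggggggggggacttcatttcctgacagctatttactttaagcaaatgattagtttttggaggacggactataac
Aldh1a1: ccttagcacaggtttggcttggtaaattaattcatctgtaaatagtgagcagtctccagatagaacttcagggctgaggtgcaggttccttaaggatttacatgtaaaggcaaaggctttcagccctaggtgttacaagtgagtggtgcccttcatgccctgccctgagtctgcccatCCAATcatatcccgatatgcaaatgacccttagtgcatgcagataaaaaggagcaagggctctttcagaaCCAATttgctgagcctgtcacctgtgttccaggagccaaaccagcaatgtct

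Gfap held 1 STAT match, whose first base lies 2 bases before the listed start, and Gja1 held 1 AP-1 match at 19 bases before the start. Aldh1a1 held CCAAT boxes at 72 and 2 bases before the start shown and an AP-1 match at 57 bases before its other start, and Pdgfra matched none of the 4 motifs. No motif was shared between the 3 genes called higher. Over all 32851 windows of the table, 8.30% held the STAT motif, 7.81% the AP-1 motif, 13.6% the TATA box and 37.4% the CCAAT box. A match is a string of letters and does not show that a factor binds there. All 9 genes had a window, 12 in all, and the other member windows with a STAT match were those of Agt and of the most upstream of 3 starts of Pax2.

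Among the genes of the migrating precursor, Pdgfra, the receptor for PDGF-A, had 227, 189, 221 and 219 CPM in C3 KO replicates 1 to 4, against 184, 154, 163 and 144 CPM in WT replicates 1 to 4, the order kept for every gene below. All 4 libraries labelled C3 KO lay above all 4 labelled WT, with replicate 2 of C3 KO and replicate 1 of WT the closest pair. The mean was 214 ± 17.0 CPM under the C3 KO label and 161 ± 17.0 CPM under the WT label (SD, n = 4 each). The log2 fold change was 0.41 ± 0.07 (SE; edgeR adjusted p = 0.000977). The call held in all 20 alternative fits, with adjusted p-values up to 0.0169.

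Pax2, the paired-box factor of the optic stalk and of astrocyte precursors, had 15.5, 8.48, 14.6 and 20.5 CPM across the C3 KO label, against 11.5, 7.86, 9.67 and 6.76 CPM across the WT label. The labels overlapped through a single library, C3 KO replicate 2, which sat among the WT values while the other C3 KO libraries lay above all of them. The log2 fold change was 0.71 ± 0.26 (SE), with a 95% interval of 0.12 to 1.30 before adjustment and an edgeR adjusted p = 0.107. Without C3 KO replicate 2 it was 0.90 ± 0.16 with an edgeR adjusted p = 0.00148, and Pax2 was also called by limma-voom (adjusted p = 0.0494) and with non-robust dispersion (edgeR adjusted p = 0.0215). In all, Pax2 was called in 4 of 20 alternatives.

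Gfap, the filament protein that rises as astrocytes mature or react to injury, had 59.0, 58.2, 74.4 and 83.9 CPM across the C3 KO label, against 51.8, 48.4, 43.2 and 41.2 CPM across the WT label. The lowest C3 KO library was above the highest WT library, and C3 KO replicates 3 and 4 stood well above the other C3 KO libraries. The mean was 68.9 ± 12.5 CPM under the C3 KO label and 46.1 ± 4.85 CPM under the WT label (SD, n = 4 each). Gfap was thus 1.49-fold higher (log2 fold change 0.58, SE 0.12, edgeR adjusted p = 0.00943). It was called in each of the 8 fits that left out 1 library (adjusted p up to 0.0326), and not with Y-linked expression as a covariate, where the log2 fold change was 0.71 and the edgeR adjusted p = 0.0501.

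S100b, a calcium-binding protein of astrocytes, had 13.6, 10.2, 13.6 and 16.4 CPM across the C3 KO label, against 11.8, 10.9, 9.62 and 9.29 CPM across the WT label. As for Pax2, C3 KO replicate 2 was the only C3 KO library inside the WT range. The log2 fold change was 0.37 ± 0.13 (SE), with a 95% interval of 0.10 to 0.64 before adjustment and an edgeR adjusted p = 0.0632. It was 0.48 with an edgeR adjusted p = 0.0116 without C3 KO replicate 2, and 0.43 with an adjusted p = 0.0346 without WT replicate 1.

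**Figure D1:**
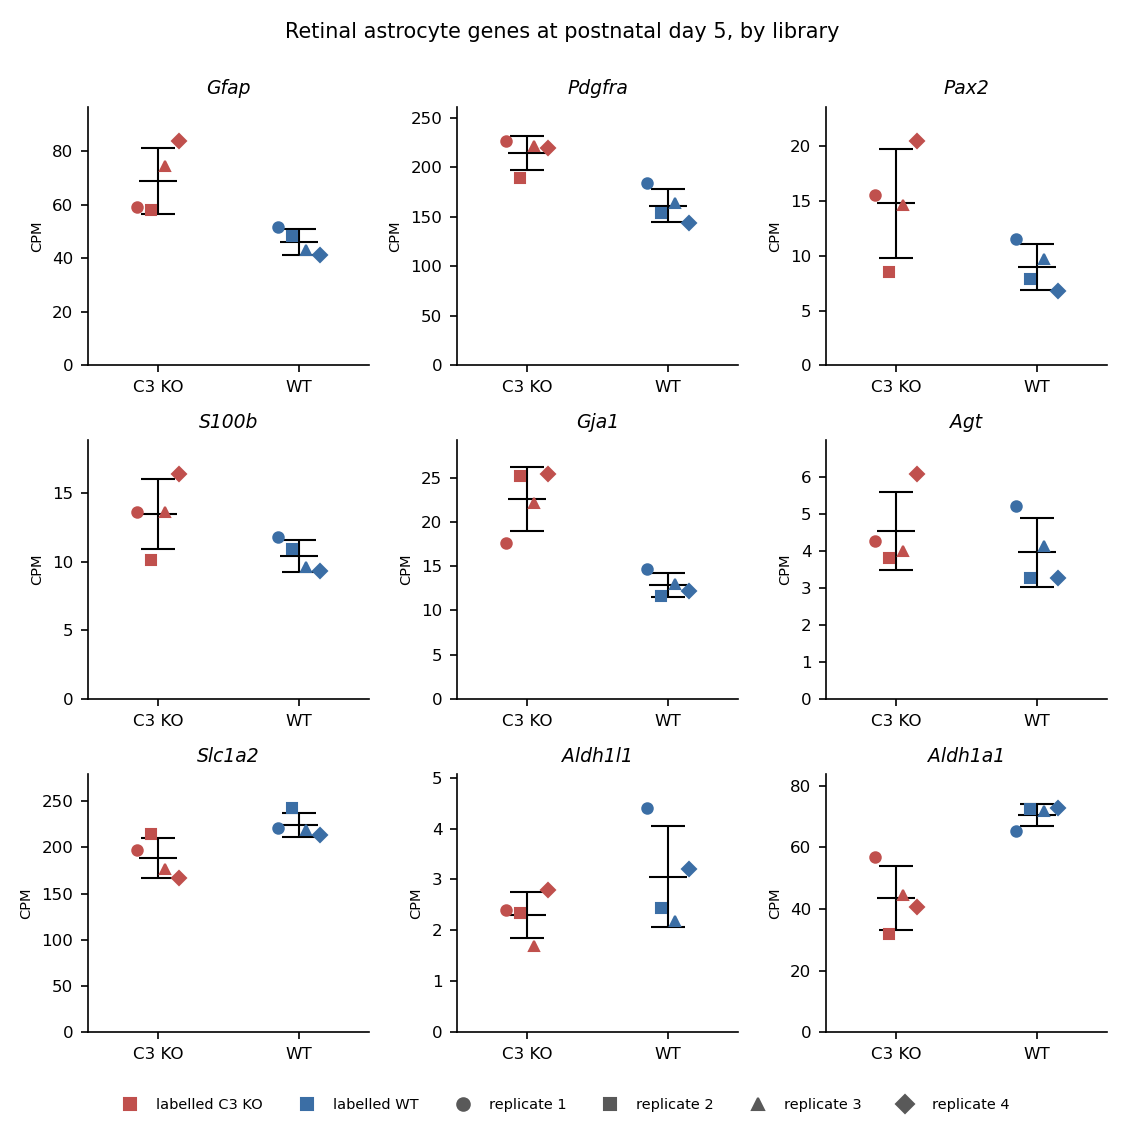
Level of each of the 9 genes (y axis, CPM, from 0) in every library, with the libraries labelled C3 KO on the left and those labelled WT on the right of each panel; symbols stand for replicates, bars for the mean and SD (n = 4 each). The labels do not overlap for Gfap, Pdgfra, Gja1 and Aldh1a1, and C3 KO replicate 2 is the lowest C3 KO library for Pax2 (8.48 CPM) and S100b (10.2 CPM).

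The largest positive difference was in Gja1, which encodes connexin 43, the gap junction protein that couples astrocytes to each other. It had 17.7, 25.2, 22.2 and 25.4 CPM across the C3 KO label, against 14.7, 11.6, 12.97 and 12.2 CPM across the WT label. The lowest C3 KO library, replicate 1, was still above the highest WT library, also replicate 1. The mean was 22.6 ± 3.61 CPM under the C3 KO label and 12.9 ± 1.34 CPM under the WT label (SD, n = 4 each), so Gja1 was 1.75-fold higher (log2 fold change 0.81, SE 0.11, edgeR adjusted p = 5.29e-05). The call held in all 20 alternative fits, with adjusted p-values up to 0.00669. Gja1 was the only one of 7 tested connexin genes that was called, in either direction. The median over those 7 was 0.05 on the log2 scale. Pigment epithelium, which also makes Gja1, moved with the label too: the summed level of its genes was 307 to 333 CPM under the C3 KO label and 112 to 171 CPM under the WT label, and its part in the difference of Gja1 was not tested.

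The transporter and enzyme genes behaved differently. Slc1a2, the glutamate transporter GLT-1, had 197, 215, 177 and 167 CPM across the C3 KO label, against 221, 243, 219 and 214 CPM across the WT label. The labels overlapped only where C3 KO replicate 2 edged above WT replicate 4. The mean was 189 ± 21.4 CPM under the C3 KO label and 224 ± 12.9 CPM under the WT label (SD, n = 4 each). The log2 fold change was −0.25 (SE 0.07, edgeR adjusted p = 0.0185). The call was lost without C3 KO replicate 3, C3 KO replicate 4 or WT replicate 2 (edgeR adjusted p = 0.0616, 0.0613 and 0.0564) and on the authors' RPKM values (limma adjusted p = 0.0643 at a pseudocount of 1) and with the Y-linked covariate (edgeR adjusted p = 0.210). Slc1a3, the glial glutamate transporter GLAST, which Mueller glia carry, averaged 185 ± 8.33 CPM under the C3 KO label and 205 ± 14.7 CPM under the WT label (SD, n = 4 each) and did not pass (edgeR adjusted p = 0.0590).

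Aldh1a1, a retinaldehyde dehydrogenase that makes retinoic acid, had 57.0, 32.0, 44.6 and 40.8 CPM across the C3 KO label, against 65.2, 72.5, 71.8 and 72.9 CPM across the WT label. The WT libraries lay close together, and all C3 KO libraries lay below them and far apart from each other, with the highest 1.78 times the lowest. The mean was 43.6 ± 10.4 CPM under the C3 KO label and 70.6 ± 3.61 CPM under the WT label (SD, n = 4 each), so Aldh1a1 was 1.62-fold lower (log2 fold change −0.70, SE 0.15, edgeR adjusted p = 0.0189). The call was lost without C3 KO replicate 3 or 4 or WT replicate 2 or 4, with edgeR adjusted p-values of 0.0613, 0.0549, 0.0712 and 0.0641, while the log2 fold change in those fits lay between −0.71 and −0.67. With the Y-linked covariate it was −0.77 (edgeR adjusted p = 0.111). Aldh1a3, the related enzyme of ventral retina, averaged 5.54 ± 0.894 CPM under the C3 KO label and 5.06 ± 0.674 CPM under the WT label (SD, n = 4 each, edgeR adjusted p = 0.649).

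Aldh1l1, the folate enzyme often used to mark astrocytes of the brain, was near the lower end of detection, with 30 to 86 reads per library, where counting alone gives an error of 10.8% to 18.3%. It had 2.39, 2.34, 1.69 and 2.78 CPM across the C3 KO label, against 4.41, 2.44, 2.18 and 3.20 CPM across the WT label. The labels overlapped, WT replicate 1 was high, and the log2 fold change of −0.41 ± 0.24 (SE) had a 95% interval of −0.92 to 0.09 (edgeR adjusted p = 0.280). Agt, which encodes angiotensinogen, the precursor of the angiotensin peptides and a secreted product of astrocytes, had 4.28, 3.80, 4.01 and 6.08 CPM across the C3 KO label, against 5.23, 3.26, 4.15 and 3.26 CPM across the WT label. Its labels overlapped in part, with C3 KO replicate 4 above all WT libraries and WT replicates 2 and 4 below all C3 KO libraries. The log2 fold change of 0.18 ± 0.20 (SE) had a 95% interval of −0.22 to 0.59 (edgeR adjusted p = 0.591). The spread between libraries (coefficient of variation 19.6% under the C3 KO label and 32.6% under the WT label for Aldh1l1, 23.01% and 23.5% for Agt) was above the counting error in each case. For Aldh1l1 under the C3 KO label the margin was small, 19.6% against up to 18.3%, and so few libraries cannot tell these apart.

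**Figure D2:**
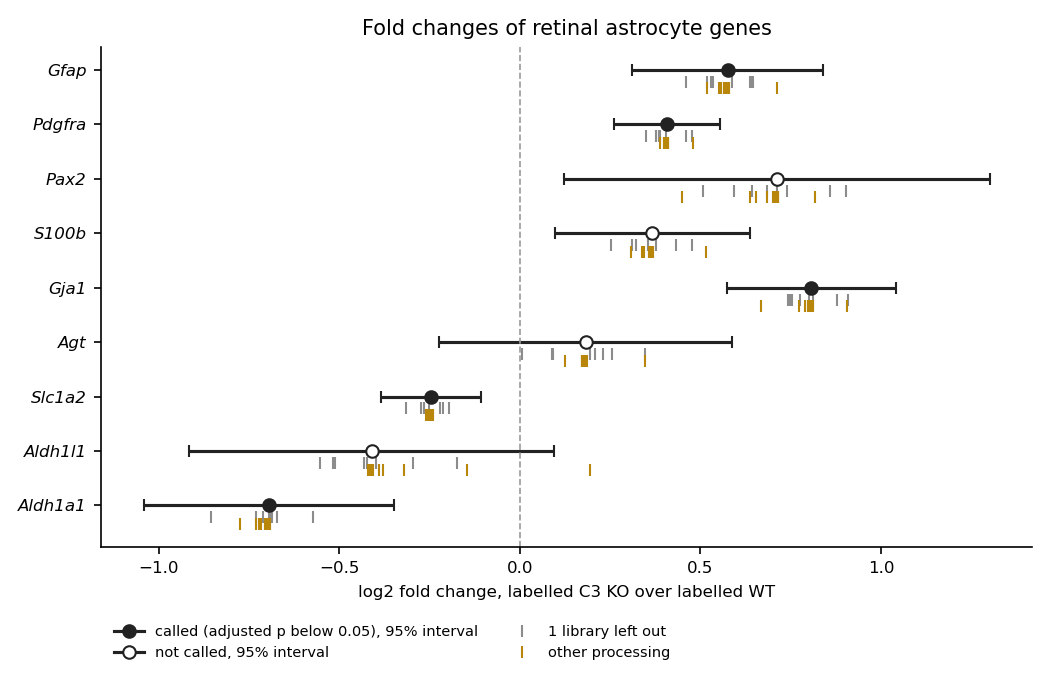
Log2 fold change, labelled C3 KO over labelled WT (x axis), for each of the 9 genes (y axis), with 95% intervals before adjustment; filled points passed an edgeR adjusted p of 0.05. Small grey ticks are the values with 1 library left out and small gold ticks those under other processing. Gja1 (0.81) and Pdgfra (0.41) stay apart from 0, as do Gfap, Pax2, S100b, Aldh1a1 and Slc1a2. The lowest tick of Agt is at 0.0065, and a single tick of Aldh1l1 crosses to 0.19.

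Levels between genes were compared per gene length, on the authors' RPKM scale turned back from log2. Under the C3 KO label Pdgfra led at 31.7 ± 2.40 RPKM (SD, n = 4). Aldh1a1 (21.2 ± 5.03), Gfap (16.3 ± 2.88) and Slc1a2 (14.3 ± 1.70 RPKM) came next, and neighbours in that run overlapped between libraries. Then came S100b (9.09 ± 1.68) and Gja1 (7.29 ± 1.16 RPKM), which overlapped, then Pax2 (2.56 ± 0.840) and Agt (2.45 ± 0.544 RPKM), which also overlapped, and Aldh1l1 at 0.533 ± 0.10 RPKM. Under the WT label Aldh1a1 was the most abundant of the 9 genes at 34.6 ± 1.84 RPKM, followed by Pdgfra at 24.0 ± 2.47, Slc1a2 at 17.1 ± 0.937, Gfap at 11.0 ± 1.11, S100b at 7.10 ± 0.755 and Gja1 at 4.20 ± 0.427 RPKM (SD, n = 4). Agt (2.17 ± 0.492 RPKM) and Pax2 (1.57 ± 0.359 RPKM) followed and overlapped each other, and Aldh1l1 was last at 0.704 ± 0.221 RPKM. Aldh1a1 stood at the 78.0th percentile of all listed genes under the C3 KO label and the 87.5th under the WT label, and Gfap at the 71.2nd and the 59.2nd.

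**Figure D3:**
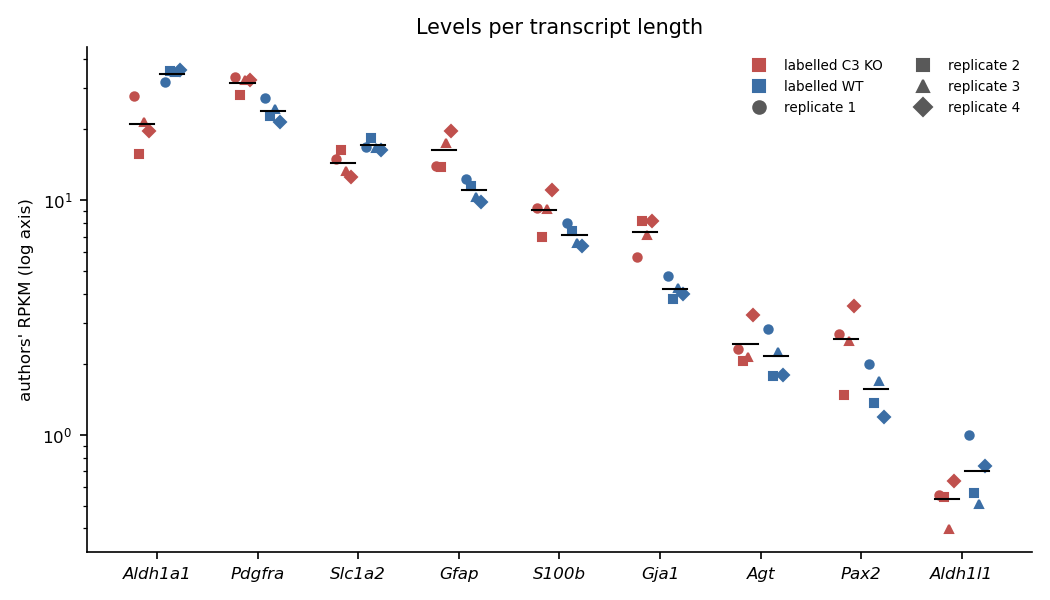
Authors' RPKM (y axis, log axis) of the 9 genes in every library, ordered by their mean under the WT label, with the libraries labelled C3 KO to the left of those labelled WT; black lines are means over 4 libraries. Pdgfra leads under the C3 KO label (31.7 RPKM) and Aldh1a1 under the WT label (34.6 RPKM), while Aldh1l1 is lowest under either.

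Libraries of the same label also differed in these genes, and often in the same direction. Among the libraries labelled C3 KO, replicate 4 was the highest for 6 of the 9 genes (Gfap, Pax2, S100b, Gja1, Aldh1l1 and Agt), and replicate 2 was the lowest for 6 (Gfap, Pdgfra, Pax2, S100b, Aldh1a1 and Agt). Among the libraries labelled WT, replicate 1 was the highest for 7 (Gfap, Pdgfra, Pax2, S100b, Gja1, Aldh1l1 and Agt), and replicate 4 was the lowest for 6 (Gfap, Pdgfra, Pax2, S100b, Slc1a2 and Agt). Ranks were not counted over all tested genes, so these counts are not known to be particular to the 9 genes. Pax2 had the widest spread under the C3 KO label, where its highest library was 2.42 times the lowest, against 1.71 times under the WT label. Under the WT label Aldh1l1 was wider, at 2.02 times, against 1.64 times under the C3 KO label. Pdgfra and Slc1a2 had ratios of 1.20 and 1.29 under the C3 KO label and of 1.28 and 1.14 under the WT label. WT replicate 1 was also the WT library with the most pigment epithelium and melanocyte RNA (171 summed CPM) and WT replicate 4 the one with the least (112 summed CPM); its part in the spread was not tested.

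**Figure D4:**
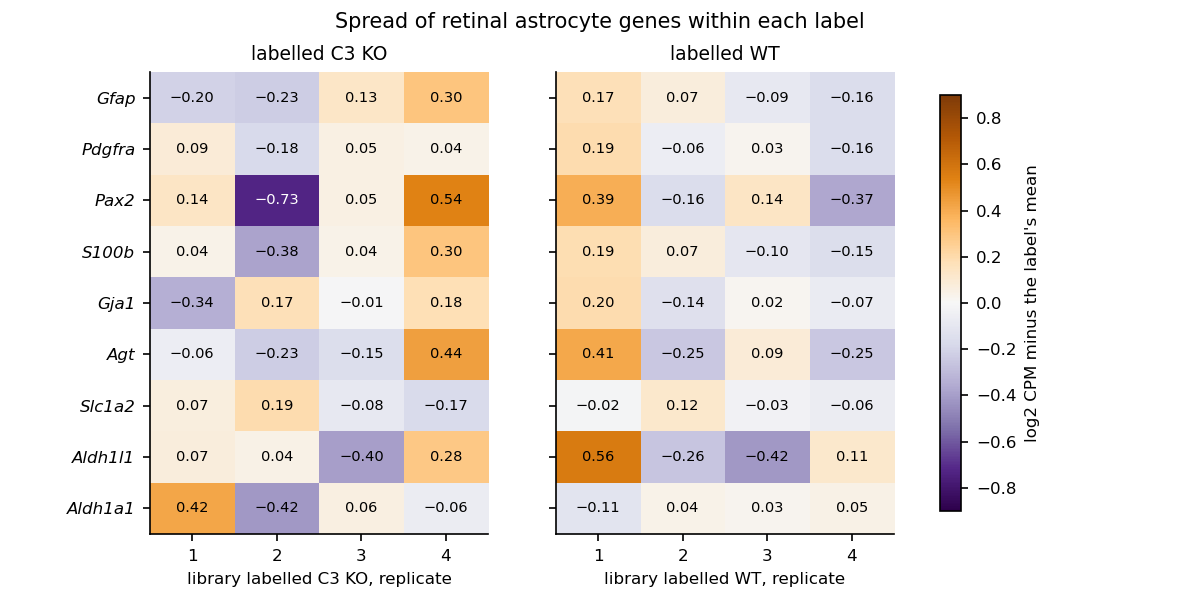
Log2 CPM of each of the 9 genes (rows) in each library (columns) minus the mean of its label, for the libraries labelled C3 KO on the left and WT on the right; orange is above and purple below the label's mean. The largest deviation is −0.73, of Pax2 in C3 KO replicate 2, followed by 0.56 for Aldh1l1 in WT replicate 1 and 0.54 for Pax2 in C3 KO replicate 4. Gfap, Pdgfra, S100b and Agt lie on the same side as Pax2 in C3 KO replicates 2 and 4.

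Deviations from the label mean were used to ask which genes followed Gfap across the 8 libraries. Among 10985 genes that averaged 10 CPM or more, the closest by Pearson's r were Tsc22d1 (r = 0.96), a transcriptional regulator, Me1 (r = 0.95), the cytosolic malic enzyme, and Tbcb (r = 0.95), a tubulin-folding cofactor. Without the 2 libraries farthest from the median, C3 KO replicates 2 and 4, the values were 0.95, 0.91 and 0.90. These are descriptions of the same 8 libraries, taken as the highest of many values. Among the other astrocyte genes S100b was closest, at r = 0.84 and rank 103, followed by Pax2 (0.72), Agt (0.67), Pdgfra (0.54) and Gja1 (0.47). Slc1a2 ran the other way at −0.62, and Aldh1a1 was at −0.09. Without the same 2 libraries the value was 0.70 for S100b, 0.69 for Gja1, 0.40 for Pax2, −0.10 for Slc1a2 and −0.69 for Aldh1a1, so the order of the members changed.

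The pathway around these genes was read from lists chosen by symbol, of which some share genes. Over all tested genes 8.33% were called higher and 5.98% lower, the shares to set beside every list count below. Among factors of the astrocyte lineage and the vessel template, 3 of 21 tested were higher and 5 lower under the C3 KO label, with a median log2 fold change of 0.08. Apc, which restrains Wnt signalling, and Nes, the precursor filament protein nestin, were higher (0.28 and 0.32), and Hif1a, the oxygen-sensing factor, and Sox9, a glial factor, were lower (−0.28 and −0.45). With the Y-linked covariate 2 were higher and 1 lower, and without C3 KO replicate 4 or WT replicate 4 the lower count was 2. The ligand that draws astrocytes, Pdgfa, averaged 17.9 ± 2.03 CPM under the C3 KO label and 16.1 ± 1.82 CPM under the WT label (SD, n = 4 each, edgeR adjusted p = 0.376). Of the 5 tested PDGF ligands and receptors other than Pdgfra, edgeR, DESeq2 and limma-voom called 0, and 0 had an unadjusted edgeR p below 0.05. The smallest edgeR adjusted p there was 0.215, for the ligand gene Pdgfd. Vegfa, the vessel growth factor that astrocytes secrete, averaged 150 ± 11.1 CPM under the C3 KO label and 142 ± 3.50 CPM under the WT label (SD, n = 4 each, edgeR adjusted p = 0.312).

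Genes that retinal astrocytes share with those of the brain moved in both directions, with 7 of 21 tested higher and 3 lower and a median of −0.06. Ndrg2, an astrocyte-enriched protein, averaged 129 ± 5.77 CPM under the C3 KO label and 108 ± 2.70 CPM under the WT label (SD, n = 4 each, log2 fold change 0.25, edgeR adjusted p = 0.00132). Slc7a10, an amino acid transporter of astrocytes, was 2.81-fold higher at 1.77 ± 0.245 CPM under the C3 KO label and 0.635 ± 0.184 CPM under the WT label (SD, n = 4 each, edgeR adjusted p = 0.00298). Lower were Nfib, a glial differentiation factor (−0.46), and Kcnj10, the potassium channel Kir4.1 of Mueller glia and astrocytes (−0.59). The 7 higher calls of this list became 3 without C3 KO replicate 3, C3 KO replicate 4 or WT replicate 4, 2 on the authors' RPKM values and 1 with the Y-linked covariate, and the 3 lower calls became 5 without C3 KO replicate 1 and 0 with that covariate. The Mueller glia list had 1 of 19 higher, the chaperone gene Clu (0.56), and 6 lower, with a median of −0.19; Sox9, Dkk3 (−0.34) and Kcnj10 were among the lower ones. Those 6 became 2 with the Y-linked covariate, 9 without WT replicate 1, and 3 without C3 KO replicate 2, C3 KO replicate 4, WT replicate 2 or WT replicate 3.

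C3 itself is used as a marker of one state of reactive astrocytes. Of 28 tested genes of reactive astrocytes, which did not include C3 or Gfap, 4 were higher and 3 lower, with a median of 0.11. Serpina3n, a protease inhibitor that reactive astrocytes make, went against Gfap: it had 1.63, 1.25, 1.18 and 1.14 CPM across the C3 KO label, against 9.17, 8.56, 8.03 and 9.29 CPM across the WT label (log2 fold change −2.74 ± 0.18, edgeR adjusted p = 3.55e-10). Clcf1, a cytokine (0.81), B3gnt5, a glycosyltransferase (0.40), and Fbln5, a matrix protein (0.70), were higher, but with the Y-linked covariate 0 genes of this list were called higher and 2 lower. Vim and Stat3 did not pass, with log2 fold changes of 0.02 and 0.03.

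Partners of the enzymes were also counted. In the renin-angiotensin list 2 of 7 tested were higher, the proteases Ctsd (0.20) and Nln (0.31), and 0 lower (0 also at an unadjusted edgeR p below 0.05, and by DESeq2 and limma-voom), with a median of 0.16. After adjustment for Y-linked expression, 1 gene of this list was called higher. Among retinoic acid enzymes and genes of dorsal or ventral retina 0 of 16 were called higher by edgeR (1 at an unadjusted p below 0.05, 0 by DESeq2 and limma-voom) and 3 were lower (5 by DESeq2), with a median of −0.14. They were Cyp26a1, which breaks down retinoic acid (−0.74), Rdh10, which makes its precursor (−0.19), and Efnb2, an ephrin of dorsal retina (−0.23). These calls did not hold with the Y-linked covariate or without WT replicate 4, where 0 were lower, nor at a pseudocount of 1 on the authors' RPKM values, and 6 were lower without WT replicate 1. Tbx5, a dorsal transcription factor, had a log2 fold change of −0.55 ± 0.19 (SE) and did not pass (edgeR adjusted p = 0.0581). Among glutamate and folate partners 1 of 18 was lower, against 5.98% of all tested genes, with a median of −0.06. It was the serine hydroxymethyltransferase Shmt2 (−0.26). The lower count was 0 with the Y-linked covariate and 3 without WT replicate 1. Of 8 optic stalk and optic nerve head genes, a list that includes Pax2, the Wnt inhibitor Sfrp1 was higher (0.48) and 0 were lower by edgeR (1 at an unadjusted p below 0.05, 1 by DESeq2, 0 by limma-voom), with a median of 0.25. With the Y-linked covariate Sfrp1 was not called, and 0 were higher.

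Genes of other cell types were read beside the 9, again against 8.33% of all tested genes called higher and 5.98% called lower. All 16 pigment epithelium and melanocyte genes had positive log2 fold changes, 11 were called higher and 0 lower, and their summed level was 307 to 333 CPM under the C3 KO label and 112 to 171 CPM under the WT label; Ttr, Tyr, Mfrp and Rgr led by p, at log2 fold changes of 1.46, 1.49, 1.77 and 1.16. Of 11 tested fibroblast, sclera and choroid genes 4 were higher and 0 lower, Col1a2 (1.02), Ogn (0.98), Fap (1.84) and Fmod (1.05), with summed levels of 29.3 to 39.3 CPM under the C3 KO label and 24.0 to 25.4 CPM under the WT label. Fap had 2 reads in each of WT replicates 2 and 3, and Fmod had 7 in WT replicate 4. In both lists 0 genes were lower at an unadjusted edgeR p below 0.05, or called lower by DESeq2 or limma-voom, and no tested gene was at 0 reads in any library. The part of fibroblasts in the difference of Pdgfra was not tested. With the Y-linked covariate 10 pigment epithelium genes and 2 fibroblast genes were called higher.

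Oligodendrocyte lineage genes, which share Pdgfra, had 2 of 9 tested higher, Lhfpl3 (0.49) and Sox10 (1.66), and 1 lower, Olig2 (−0.67), with summed levels of 121 to 130 CPM under the C3 KO label and 111 to 141 CPM under the WT label. Sox10, which melanocytes also express, stood at 0.682 to 1.24 CPM under the C3 KO label and at 0.159 to 0.582 CPM under the WT label. It had 3 reads in each of WT replicates 3 and 4. With the Y-linked covariate 0 oligodendrocyte genes were called in either direction, and Olig2 was not called without C3 KO replicate 2 or 4 or WT replicate 2, 3 or 4. All 13 microglia genes had positive log2 fold changes, with a median of 0.28 and summed levels of 209 to 250 CPM under the C3 KO label and 164 to 210 CPM under the WT label. Fcrls (0.99), Csf1r (0.51) and C1qb (0.26) were the 3 called higher, and 8 were called without WT replicate 1. Endothelial genes had 1 of 12 higher, Tek (0.50), against 8.33% of all tested genes. That count was 0 with the Y-linked covariate or without C3 KO replicate 3, C3 KO replicate 4 or WT replicate 4. In these 2 lists 0 genes were lower by edgeR, also at an unadjusted p below 0.05, or by DESeq2 or limma-voom. Lens, cornea and ciliary body genes had 1 of 5 lower, Cryba1 (−1.51), and 0 higher by edgeR (0 at an unadjusted p below 0.05, 0 by DESeq2 and limma-voom), with summed levels of 7.05 to 8.47 CPM under the C3 KO label and 7.16 to 8.33 CPM under the WT label. Cryba1 was not called with the Y-linked covariate, nor without C3 KO replicate 3 or 4 or WT replicate 2, 3 or 4, which left 0 lower. It had 3 reads in C3 KO replicate 3 and 4 in C3 KO replicate 4.

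**Figure D5:**
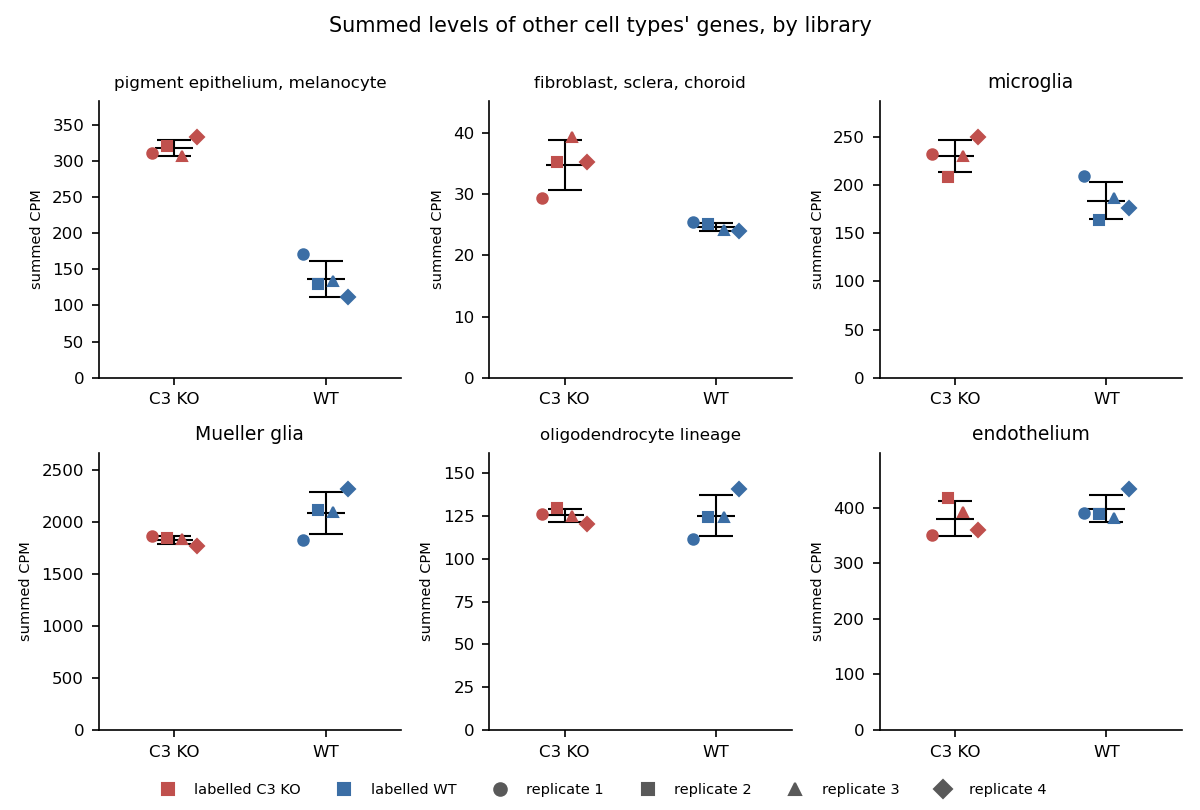
Summed CPM (y axis, from 0) of 6 lists of genes of other cell types in every library, with the libraries labelled C3 KO on the left and WT on the right of each panel; bars are the mean and SD (n = 4 each). The pigment epithelium sums (307 to 333 against 112 to 171) and fibroblast sums (29.3 to 39.3 against 24.0 to 25.4) do not overlap between the labels, while the oligodendrocyte and endothelial sums do.

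Reads of 3 of the 9 genes could include an overlapping antisense transcript, since no source used here states the strand setting of the counting. In the GRCm38 annotation exons of Pdgfra, Aldh1l1 and Slc1a2 overlap a gene annotated as antisense over 456, 499 and 189 bases, and those of Pdgfra overlap a further opposite-strand gene over 166 bases. On the same strand, exons of Aldh1l1 overlap a long non-coding RNA gene over 105 bases and those of Pdgfra a microRNA gene over 30 bases. None of these overlapping genes has a row in the count table. Gfap, Pax2, S100b, Gja1, Aldh1a1 and Agt had no overlapping exons of another gene.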

How the data were processed

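Poly(A) RNA was made into directional libraries, per the labels' protocols. The deposited read counts per gene are whole numbers without normalization. A second deposited table holds log2 RPKM, which followed the logarithm of the count plus 2 reads within 0.0127. Builds mm9 and NCBIM37 and the tools STAR and HTSeq, with no version of either, are listed per the submitters' processing notes. The 8 columns were matched to samples by title.

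Counts were fitted in R 4.3.3 with edgeR 4.0.16 (default expression filter, TMM, quasi-likelihood test with robust dispersion, 4 libraries labelled C3 KO against 4 labelled WT, no covariate), with Benjamini-Hochberg adjustment over 15850 genes and a threshold of 0.05, after a check on simulated counts. Alternatives used limma 3.58.1 and DESeq2 1.42.0. SE is the absolute log2 fold change over the root of its F statistic. At most 3 reads in a library equal 0.182 CPM. Counting errors and floors cover counting only, and reads are not known to be independent molecules. No 2 libraries of a label agreed within sampling noise (chi-square per degree of freedom at least 3.72).

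The members, lists and tests were chosen with earlier results of these data known. Named outside the members were C3, Xist, Y-linked genes, 5 partners, up to 4 called genes per list by p (or 1 where none was called) and the 3 genes closest to Gfap; Crx, Vim, Stat3 and Tbx5 were named after their values were seen. Listed genes that are not in the count table were not analysed here, and genes called higher in the glutamate and folate list are not reported here. Promoter windows come from RefSeq (GRCm38.p6), and gene overlaps from GENCODE M21 (GRCm38), which differs from the builds in those notes.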

Additional observations from a re-analysis of the deposited data

Results flagged for a closer look

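In 20 groups of 4 libraries, 1 value lay far from the other libraries of its label: Aldh1a1 in WT replicate 1, at 65.25 CPM, where WT replicates 2 to 4 had 71.8 to 72.9 CPM. Chance alone flags about 1 in 20 such groups. The value is on the side of the libraries labelled C3 KO, which had 32.0 to 57.0 CPM, and without this library the log2 fold change of Aldh1a1 was −0.73 ± 0.18 (SE, edgeR adjusted p = 0.0346).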

How the results depend on the processing

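Over all genes 2269 were called. The count was 1509 and 1502 by limma on log2(RPKM + 1) and log2(RPKM + 0.1), and 530 after adjusting for Y-linked expression (mean log2 CPM, correlation with the label 0.732). Only WT replicate 3 had Y-linked RNA at the level of the C3 KO label, so the adjusted fit separates sex from label poorly. The covariate also set WT replicate 1 apart from WT replicates 2 and 4. The count was 1305 to 2543 when 1 library was left out, the lowest without C3 KO replicate 4. Of the 9 genes 3 were called higher, and 3 to 5 when 1 library was left out, the highest without C3 KO replicate 2; it was 2 with the Y-linked covariate. The 2 called lower became 1 by limma on RPKM at either pseudocount, 0 with the Y-linked covariate, and 0 to 2 when 1 library was left out, being 0 without C3 KO replicate 3, C3 KO replicate 4 or WT replicate 2 and 1 without WT replicate 4. With the replicate number as a block 2400 genes were called, and 3 members higher and 1 lower: Gfap (edgeR adjusted p = 0.0945) and Aldh1a1 (0.0537) lost their call and Pax2 (0.0471) gained one. Same-numbered libraries did not deviate together (correlations −0.06, 0.09, 0.00 and −0.06), 1 of 4 correlated best with its own number, and the labels do not pair them.

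With the Y-linked covariate Aldh1l1 reversed, to 0.19 (adjusted p = 0.820), and Aldh1a1 (−0.77, adjusted p = 0.111) and Slc1a2 (−0.24, adjusted p = 0.210) kept their direction without a call; the cause was not tested. The SE in that fit was 0.17 for Gfap and 0.10 for Slc1a2, against 0.12 and 0.07 in the main fit. No other log2 fold change of the 9 genes changed sign in up to 20 alternatives. In the filter at 10 CPM Aldh1l1 and Agt were not tested. Scaling moved the median of all genes by less than 0.01. Of the list counts, 21 were above 0; of their 420 recomputed values 332 stayed within 1.5 times and 88 moved further, and 9 of the 21 were 0 with the Y-linked covariate. Aldh1l1 and Agt rest on 30 to 107 reads per library.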
